A study of Mus musculus with 4 samples.

Results

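The cells described here are the neural cells of the control dorsal telencephalic midline at 2 ages, E11.5 and E14.5, compared as 1 single-cell RNA library against another. A barcode was kept when it had at least 1000 genes and at most 10% of its unique molecular identifiers (UMIs, counts of captured RNA molecules) in mitochondrial genes. A cell was left out when it held 5 or more summed UMIs of the fibroblast collagens Col1a1, Col1a2 and Col3a1, or 2% or more of its UMIs in haemoglobin genes. These rules kept 5914 cells at E11.5 and 6952 at E14.5, which is 12866 of the 24187 cells that the same rules keep over the 4 libraries of the series, and of 30362 deposited barcodes. The collagen and haemoglobin rules removed 1048 of the 6962 barcodes that passed the first filter at E11.5 (15.1%) and 117 of 7069 at E14.5 (1.66%).

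Both control libraries carry Lmx1aCre::Ai9, that is, a Cre recombinase expressed from Lmx1a, a gene of the cortical hem and roof plate, together with the Ai9 reporter, which makes tdTomato in cells that have had Cre activity and in their descendants. The E11.5 library pooled 5 male embryos and the E14.5 library 3, both hemispheres included, and the sample titles write the ages as E11 and E14. The tissue was dissected around the cortical hem and also takes in some hippocampal primordium and Cajal-Retzius cells, with no sort for the reporter, so a library mixes the labelled lineage with its neighbours. The other 2 libraries, of the same ages, come from Lmx1aCre::Ai9::b-cat gof embryos, which add a gain-of-function beta-catenin allele to the same Cre and reporter; their values are set beside the control values only to show how far an age difference recurs in another pair of pools. Each group is 1 pool of embryos, so age, pool, dissection and library cannot be told apart, no test between ages was possible, and every interval below is a 95% interval for counting error only.

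The kept cells had a median of 8264 UMIs and 2690 genes at E11.5 and 13165 UMIs and 4376 genes at E14.5, and 62332164 and 109946841 UMIs in all. Levels are given as CPM, a gene's UMIs summed over cells as its portion of all UMIs, scaled to 1000000, a scale on which genes of different length are not compared, and age differences as log2 of (E14.5 CPM + 1)/(E11.5 CPM + 1). In such sums, fewer cells of a type and less RNA per cell cannot be told apart. The labelled tissue was checked against its markers. The neural genes Sox2 (215 CPM at E11.5, 218 at E14.5), Vim (991 and 1141) and Stmn2 (172 and 574) were detected at both ages, as were Emx2 (162 and 193) and Lhx2 (303 and 592), genes of the dorsal telencephalon. The hem genes Rspo2 (244 and 165 CPM) and Lmx1a (32.7 and 52.9 CPM) were present, Wnt3a was low (17.6 and 9.52 CPM), Wnt2b stayed under 10 CPM at both ages, and tdTomato read 38.9 and 60.2 CPM. The 2 libraries shared 13 barcodes, 11 of them kept.

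During these days the dorsal midline of the forebrain passes from patterning to production. The cortical hem is a signalling centre that secretes WNT and BMP ligands beside the hippocampal primordium, it gives rise to Cajal-Retzius cells, which secrete reelin and are among the earliest neurons of the cortex, and it adjoins the choroid plexus epithelium. Radial glia, the neural stem cells of the ventricular zone, shift over the same period from an early state marked by Lin28 and Hmga genes to a later state marked by nuclear factor I (NFI) genes, and they increasingly divide through Eomes-expressing intermediate progenitors to make projection neurons. The Lin28 proteins and the microRNA let-7 form a timing circuit of early development: Lin28 blocks let-7 maturation, and let-7 represses Lin28 and Hmga2 through sites in their 3' untranslated regions (UTRs).

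Hmga2, a chromatin protein gene of young stem cells, was among the lowest genes at E14.5 relative to E11.5. Progenitor-range cells, defined below by a panel of progenitor and neuronal genes, held 266 CPM of Hmga2 (interval 262 to 270) at E11.5 and 10.7 CPM at E14.5, a log2 difference of -4.51. Lin28b, the let-7 antagonist, read 45.4 CPM (43.6 to 47.3) and 4.09 CPM (3.61 to 4.63) in the same cells, a log2 difference of -3.19. After thinning, Hmga2 was detected in 38.8% of kept cells at E11.5 and 1.81% at E14.5, and in 44.7% and 13% of the collagen-positive cells left out, so it was not particular to neural cells at E11.5. The Lin28b paralogue Lin28a was near the detection floor already, with 1.8 CPM over all kept cells at E11.5 and 0.0273 CPM at E14.5. The let-7 microRNAs themselves were not measured by these libraries, but their sequence shows what the 2 messages share. The 8 mouse let-7 names matched in RefSeq have the same seed at bases 2 to 8, the stretch that pairs with a target, in capitals here:
mmu-let-7a-5p: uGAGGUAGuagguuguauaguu
mmu-let-7b-5p: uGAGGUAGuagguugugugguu
mmu-let-7g-5p: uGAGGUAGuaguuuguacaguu
mmu-let-7i-5p: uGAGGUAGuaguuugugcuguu

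The complement of that seed, CTACCTC, was searched on the transcript strand in the longest 3' UTR of each gene (GENCODE M21, GRCm38), and 9.2% of 20676 genes hold at least 1 match. The Hmga2 3' UTR of 3014 bases, on the minus strand of chromosome 10 within the gene at 120361275 to 120476469, holds 4 matches. The Lin28b 3' UTR of 4445 bases, in the gene at 45376620 to 45486395 on the same chromosome and strand, also holds 4. The matches are shown 5' to 3' with the seed complement in capitals:
Hmga2 at chr10:120364224-120364246: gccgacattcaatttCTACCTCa
Hmga2 at chr10:120362987-120363009: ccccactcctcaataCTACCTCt
Hmga2 at chr10:120362549-120362571: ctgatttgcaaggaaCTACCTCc
Hmga2 at chr10:120361691-120361713: aatcaaaacacactaCTACCTCt
Lin28b at chr10:45381022-45381044: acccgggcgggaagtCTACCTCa
Lin28b at chr10:45378648-45378670: tatacttgttagtaaCTACCTCt
Lin28b at chr10:45378476-45378498: gtttacagcacatggCTACCTCc
Lin28b at chr10:45377060-45377082: aaatgatggcaccgaCTACCTCt

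List members with seed matches differed from each other in their age difference. The list of heterochronic genes and let-7 targets was chosen partly for such sites, and 15 of its 16 members hold a match. Members with and without a match therefore cannot be compared within it. Nr6a1, an orphan nuclear receptor gene of early embryos, has 8 matches in 4457 bases on the minus strand of chromosome 2, of which 2 are shown because they have the same core as those above:
Nr6a1 at chr2:38727719-38727741: gagactgtggagcagCTACCTCc
Nr6a1 at chr2:38727449-38727471: tgttgacaaagacaaCTACCTCa

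The log2 difference of Nr6a1 over all kept cells was 0.15. Igf2bp1, an RNA-binding protein gene with 4 matches, differed by -0.60 over all kept cells, and by -1.33 against genes of like length. Of the 11 list members measured at 10 CPM or more in the progenitor range, 3 were at least 2-fold lower and 1 higher (2.74% and 27% of all genes tested in that range), with a median log2 difference of 0.31 against 0.60 for all genes. After the median of genes of like length was subtracted, as set out below, 4 were lower and 0 higher, with a median of -0.95.

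Across genes, most age differences in CPM pointed upwards, and the scale has to be read with the lists. Of 9677 genes with at least 10 CPM at either age, 2890 (29.9%) were at least 2-fold higher at E14.5 and 303 (3.13%) at least 2-fold lower, with a median log2 difference of 0.60. When that shift of the typical gene was removed by median-of-ratios scaling (0.55 on the log2 scale), 1150 genes (11.9%) were higher and 1004 (10.4%) lower, so the share of higher genes among those called went from 90.5% to 53.4%. In the progenitor range 2546 of 9441 genes (27%) were higher and 259 (2.74%) lower in CPM, against 820 (8.69%) and 897 (9.5%) after centring by 0.54, which takes the higher share from 90.8% to 47.8%. In the neuron range 2279 of 9508 genes (24%) were higher and 534 (5.62%) lower, against 1313 (13.8%) and 1006 (10.6%) after centring by 0.36, and the higher share went from 81% to 56.6%.

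A pair of measured features moved with that shift. Ribosomal protein genes, which build the small and large ribosome subunits, took 26.1% of UMIs at E11.5 and 13.6% at E14.5, and in the gof pair 26% and 17%. All 81 measured ribosomal protein genes were below 0 on the log2 CPM scale (-1.71 to -0.02, median -0.84), 31 of them at least 2-fold lower. Gene length also moved with age. Over all kept cells the median log2 difference was 0.01 for the shortest genes (median span 5.21 kb) and 1.20 for the longest (164 kb), with 0.33, 0.58 and 0.82 in the bins between, and the shortest bin went from 56.5% of UMIs to 38.5%. The gof pair gave 0.10 to 1.14 over the same bins. The collagen-positive cells left out of the control libraries, 804 at E11.5 and 94 at E14.5, gave -0.15 to 1.15. The length trend was thus as large in the left-out cells of the same 2 libraries. Its cause was not tested, and no source used here states whether intron reads were counted.

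From here on, list counts in CPM are given with the count after the median of genes of like length was subtracted, a setting chosen after seeing the data. On that length-centred scale 866 genes (8.95%) were at least 2-fold higher and 736 (7.61%) lower over all kept cells. In the progenitor range they were 580 (6.15%) and 649 (6.88%), and in the neuron range 941 (9.9%) and 925 (9.73%). A length-centred value is a difference from genes of like span, not a change in level.

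The makeup of the tissue differed first in the share of cells with a neuronal score. Each cell of at least 3000 UMIs was thinned to 3000 and scored by log2 of its neuronal panel UMIs over its progenitor panel UMIs, each plus 1. Cells scoring at least 1 form the neuron range and cells scoring -1 or less the progenitor range, which are ranges of a score and not cell types. The neuronal panel genes have a median span of 64.9 kb and the progenitor panel genes 6.16 kb. The score was not corrected for gene length, and the part of the length trend in the shares below was not tested. The neuron range held 9.7% of cells at E11.5 (564 of 5816, interval 8.95 to 10.5) and 33.2% at E14.5 (2206 of 6642, 32.1 to 34.4). The progenitor range held 79.6% (4627 cells) and 55.8% (3706 cells). Cells within 0.25 of a limit made up 8.44% and 7.38%, and the gof pair moved the same way, from 14.7% to 37.5% in the neuron range. Median depth before thinning was 8887 and 13748 UMIs in the progenitor range and 5340 and 13314 in the neuron range.

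**Figure D1:**
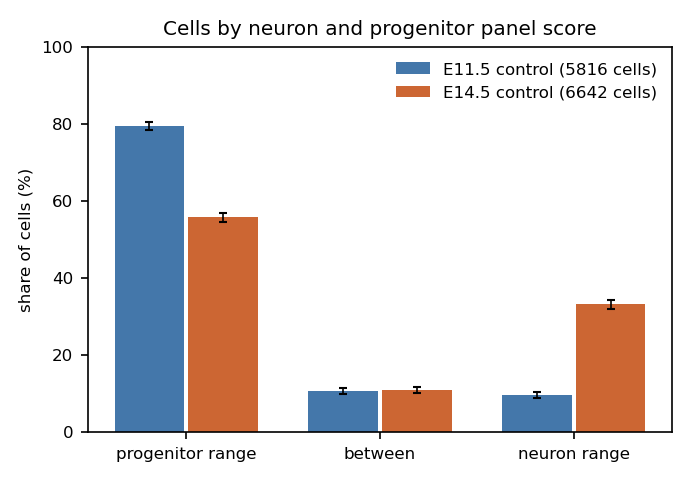
Share of control cells (percent of cells with at least 3000 UMIs) in the progenitor range, between the ranges and in the neuron range; blue bars are E11.5, orange bars E14.5, and error bars are exact 95% binomial intervals for counting error. The neuron range went from 9.7% to 33.2% and the progenitor range from 79.6% to 55.8%, with no overlap of the intervals.

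Single genes of the neurogenic lineage were also detected in a larger share of cells at E14.5. Neurod6, a transcription factor gene of postmitotic pyramidal neurons, was detected in 0.877% of thinned cells at E11.5 and 26.3% at E14.5. Eomes, a marker of intermediate progenitors, was detected in 4.93% of cells (4.39 to 5.52) and 21.8% (20.9 to 22.9). Its level was 160 and 180 CPM in the neuron range (0.17) and 3.19 and 69.1 CPM in the progenitor range. Eomes detection is therefore not read as a share of intermediate progenitors. The left-out collagen-positive cells, in which neither gene is expected, held Neurod6 in 0.125% and 3.26%, and Eomes in 2.38% and 3.26%. The radial glia gene Fabp7 was detected in 35.8% and 41.3% of them, so these cells are not a pure gauge of free RNA. Those cells had median depths of 8994 and 12488 UMIs before thinning, against 8343 and 13454 in the neural cells.

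The progenitor and neuron ranges did not simply repeat the whole-tissue differences. Of the 2890 genes at least 2-fold higher over all kept cells, 2156 were also higher in the progenitor range, 1747 in the neuron range and 1289 in both. Of the 303 lower genes, 211 were lower in the progenitor range, 203 in the neuron range and 140 in both.

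**Figure D2:**
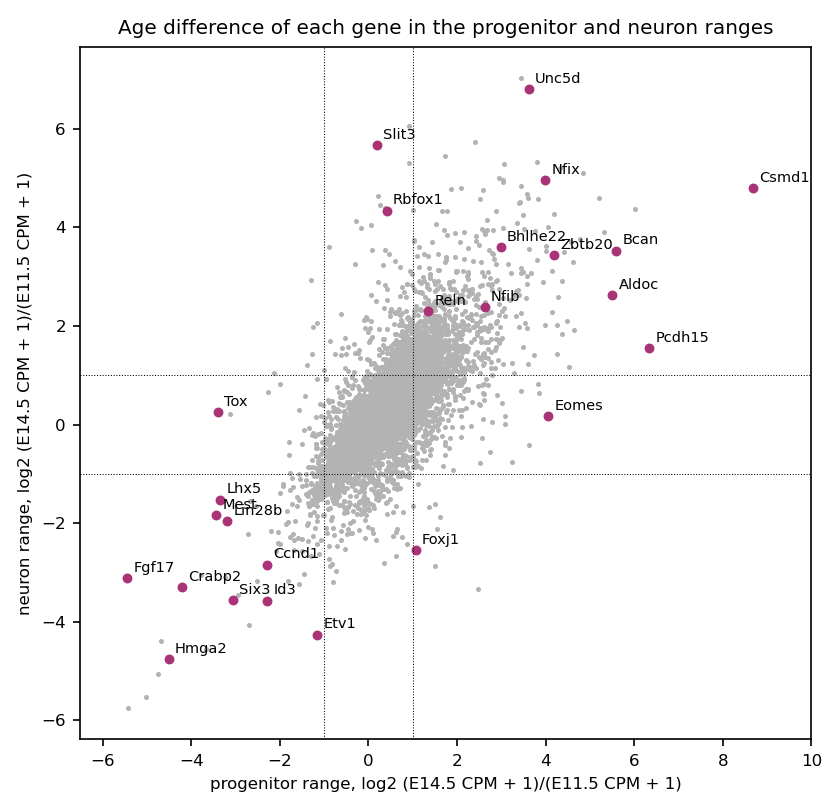
Each point is a gene measured in both ranges (8647 genes); the horizontal axis is its log2 ratio of E14.5 to E11.5 CPM in the progenitor range and the vertical axis the same in the neuron range, dotted lines mark 2-fold, and 25 genes are labelled in purple. Hmga2, Fgf17 and Crabp2 are low in both ranges, Nfix and Zbtb20 high in both, Eomes and Pcdh15 high mainly in progenitors, and Slit3 and Rbfox1 high mainly in neurons.

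In the progenitor range, genes of radial glia maturation were higher together. Of 25 measured members of that list 18 were at least 2-fold higher and none lower (27% and 2.74% of all genes tested), with a median log2 difference of 1.98 against 0.60 for all genes. On the length-centred scale 16 were higher and 1 lower. Zbtb20, a zinc finger repressor gene that specifies the hippocampus, stood at 102 CPM (99.6 to 105) at E11.5 and 1902 CPM (1892 to 1913) at E14.5, a log2 difference of 4.20 in CPM and 2.95 length-centred. Its thinned detection went from 25% to 89% of all kept cells, and from 21.4% to 71.7% of the collagen-positive cells left out. All 3 measured NFI genes, which drive gliogenic competence, were higher. Nfix went from 47.1 to 763 CPM (3.99, length-centred 2.95). Nfib was already at 382 CPM at E11.5 and reached 2377 CPM (2.63). Nfia went from 465 to 1819 CPM, a log2 difference of 1.96 that was 0.71 after centring by length. Sox9, which acts upstream of the NFI genes in gliogenesis, was 247 and 500 CPM (1.02).

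Several of these genes were near absent at E11.5. Tnc, an extracellular matrix protein gene of the ventricular zone, had 0.346 CPM (0.205 to 0.546) at E11.5 and 83.5 CPM (81.3 to 85.8) at E14.5 in the progenitor range. Bcan, the proteoglycan brevican, stood at 0.192 and 56.3 CPM. Aldoc, a glycolytic aldolase that later marks astrocytes, read 3.25 and 193 CPM, and its length-centred difference (5.61) was as large as that in CPM (5.51). Ndrg2, also an astrocyte gene, stood at 6.45 and 152 CPM, while Slc1a3, a glutamate transporter of radial glia and astrocytes, was present at both ages at 27.3 and 208 CPM. By contrast the radial glia gene Fabp7, a fatty acid binding protein, was expressed at both ages at similar levels, 864 and 954 CPM (0.14). Tnc was also detected in 18.5% of the left-out collagen-positive cells at E14.5 after thinning, against 10.3% of neural cells, so its detection was not limited to the neural cells.

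The genes of the neurogenic programme were higher within the same range. Of 13 measured proneural and intermediate progenitor genes 11 were at least 2-fold higher and none lower, with a median of 1.79, and 10 were higher on the length-centred scale. Eomes went from 3.19 CPM (2.72 to 3.71) to 69.1 CPM (67 to 71.2), a log2 difference of 4.06. Neurog2, the proneural factor of the pallium, went from 72 to 251 CPM. Gadd45g, a growth arrest gene of newly committed cells, stood at 56.1 and 392 CPM, and Btg2, an antiproliferative gene of neurogenic divisions, at 22.6 and 154 CPM.

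Most cell cycle genes in progenitors stayed within 2-fold in CPM, with medians below that of all genes and exceptions among the G1 regulators. Of 34 S phase genes 1 was higher and none lower (median 0.04), and of 30 G2 and mitosis genes 2 were higher and none lower (median 0.43), against a median of 0.60 for all genes. After centring by length 3 S phase genes and 1 mitotic gene were lower and 0 of either list higher, with medians of -0.32 and -0.06. Ccnd1, a D-type cyclin that drives G1 progression, was lower, at 134 CPM (131 to 137) and 26.6 CPM (25.3 to 27.9), a log2 difference of -2.29. Its relative Ccnd2, which is enriched in radial glial endfeet, stood at 298 and 578 CPM (0.95). Cdkn1b, the p27 inhibitor of G1 kinases, was higher, at 31.9 and 137 CPM (2.07). The proliferation marker Mki67, 1 of the 2 higher mitotic genes, was 65.7 and 161 CPM (1.28). Other cycle genes read lower without reaching 2-fold: the mitotic genes Birc5 (257 and 150 CPM) and Ccnb2 (127 and 71.9 CPM), and Rrm2 of S phase (317 and 170 CPM).

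Other genes were also lower in the progenitor range at E14.5. Crabp2, a retinoic acid binding protein gene, stood at 230 CPM at E11.5 and 11.6 CPM at E14.5 (-4.20). Its neuron-range level was higher at both ages, at 536 and 53.5 CPM. Mest, an imprinted gene of fetal growth, went from 653 to 59.1 CPM in the progenitor range (-3.44). Id3, a target of BMP signalling that blocks basic helix-loop-helix factors, was among the most abundant of the lower genes, at 2000 CPM (1988 to 2012) and 409 CPM (404 to 414), and Id1 stood at 251 and 71 CPM. The related Id4 went the other way, from 165 to 525 CPM (1.67).

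**Figure D3:**
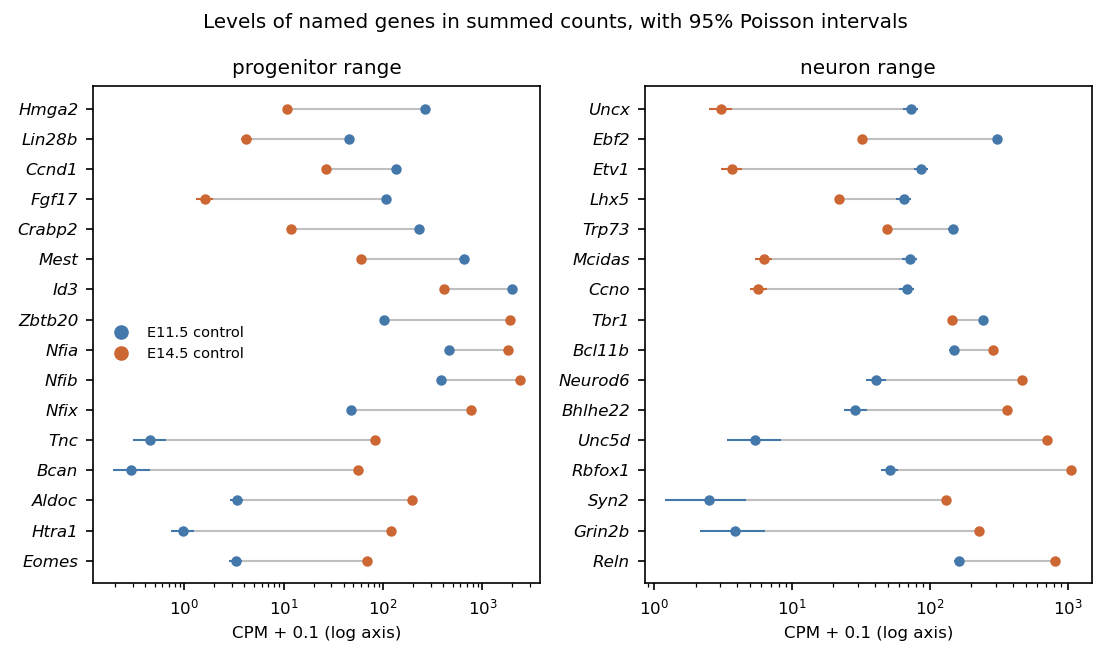
Levels of 16 genes in the progenitor range (left) and 16 in the neuron range (right), as CPM + 0.1 on a log axis, in summed counts; blue points are E11.5, orange points E14.5, horizontal bars 95% Poisson intervals for counting error and grey lines join the 2 ages. Hmga2 goes from 266 to 10.7 CPM and Zbtb20 from 102 to 1902 CPM in the progenitor range, and Unc5d from 5.34 to 710 CPM in the neuron range.

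Some genes of adhesion and synaptic function were also among the 10 highest of the progenitor range. Csmd1, a complement-regulating membrane protein gene, read 2.63 and 1487 CPM (8.68, length-centred 7.42), and Pcdh15, a protocadherin gene, 3.15 and 335 CPM (6.34). Kcnip1, which encodes a potassium channel interacting protein, stood at 4.11 and 272 CPM, and Gabrb1, a subunit of the GABA-A receptor, at 2.77 and 139 CPM. Htra1, a secreted serine protease gene of astroglia, was at 0.864 and 120 CPM, while the gof pair gave 2.52 and 9.72 CPM.

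Some signalling genes of the hem were lower and others were not. In the progenitor range 6 of 16 measured hem and roof plate genes were at least 2-fold lower and 1 higher (median -0.82), and 13 were lower on the length-centred scale. Wnt8b, a WNT ligand gene of the hem and hippocampal anlage, stood at 149 and 66.8 CPM. Bmp4, a BMP ligand gene of the roof plate, stood at 32.4 and 8.7 CPM. Rspo1, which encodes an R-spondin that amplifies WNT signalling, was 219 and 119 CPM (-0.87), short of 2-fold. Wnt5a, the noncanonical ligand, was the higher member, at 19.1 and 54.4 CPM. Lmx1a, whose promoter drives the Cre, did not follow the lower members, at 34.4 and 69 CPM, while Wnt3a, the hem-restricted ligand, read 19.1 and 14.4 CPM. Among 10 canonical WNT targets 5 were higher and 1 lower in CPM, and 1 each after centring by length. Axin2, a feedback inhibitor of the pathway, stood at 78 and 111 CPM (0.51).

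Most measured FGF genes were lower. Of 13 measured ligands, receptors and targets 8 were at least 2-fold lower and 1 higher (median -1.57), and the counts were the same on the length-centred scale. With only members of at least 50 CPM at either age the median was 0.91, so its sign rests on the less abundant members. Fgf17, a ligand gene of the rostral patterning centre, had 108 CPM (105 to 111) and 1.5 CPM (1.21 to 1.84). Fgf8, its companion in that centre, had 47.2 and 0.783 CPM, and Fgf15, also a ligand, 17.3 and 0.735 CPM. Targets that report FGF signalling were lower with the ligands. The feedback inhibitor Spry2 stood at 52.8 and 8.39 CPM. Dusp6, a phosphatase of the ERK pathway, stood at 20.3 and 6.17 CPM, and the ETS factor Etv5 at 23.7 and 5.2 CPM. Fgfr3, a receptor gene of maturing radial glia, was the member higher by 2-fold, at 11.4 and 104 CPM.

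Regional identity genes differed with age as well. Of the diencephalic and other regional genes, 3 were measured over all kept cells and all 3 were lower (median -2.87), also on the length-centred scale. Olig3, a factor of the thalamus, went from 13.7 CPM to 0.0273 CPM, and Barhl2, a diencephalic homeobox gene, from 19 to 1.75 CPM. Pallial and hippocampal genes were split: 11 of 21 were higher and 4 lower in the progenitor range (median 1.11), or 7 and 5 on the length-centred scale. Six3, a rostral forebrain factor, was a lower member, at 56.9 and 5.96 CPM. Prox1, a factor of the dentate gyrus, stood at 5.95 and 109 CPM there (3.99). Prox1 was detected in 2.13% of all thinned cells at E11.5 and 23% at E14.5, against 0.375% and 2.17% of the collagen-positive cells left out. Differences between the 2 dissections and differences within 1 region cannot be told apart from these sums.

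Of 11 measured choroid plexus genes 7 were higher and 1 lower in the progenitor range (median 1.49), or 4 and 1 on the length-centred scale. Ttr, the transthyretin gene that dominates choroid epithelium, stood at 262 CPM at E11.5 and 2525 CPM at E14.5 over all kept cells. Cells with 1% or more of their UMIs in Ttr made up 0.994% of the progenitor range at E11.5 (46 cells) and 3.53% at E14.5 (131 cells). The choroid list median over all kept cells turned from 1.25 to -1.50 without such cells, a removal that itself uses the Ttr level, and to -0.33 when endothelial, mural and microglial cells were left out instead. Thinned Ttr detection was also higher in collagen-positive cells (8.89% and 31.5%) than in neural cells (5.64% and 21%), so it was not particular to the neural cells. The part of free RNA in it was not tested.

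In the neuron range, the genes of synapses, channels and axon guidance were higher together. Of 23 measured synaptic vesicle and release genes 18 were at least 2-fold higher and none lower (24% and 5.62% of all genes tested), with a median of 1.72 against 0.43 for all genes, and 13 were higher on the length-centred scale. Syn2, a synapsin of the vesicle pool, read 2.4 and 132 CPM (5.29, length-centred 4.39). Snap25, a core protein of vesicle fusion, stood at 52.3 and 188 CPM.

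Channels and receptors gave 19 of 22 members higher and none lower (median 1.88), and 9 higher after centring by length. Grin2b, the NMDA receptor subunit of young neurons, stood at 3.74 and 229 CPM (length-centred difference 4.33). The AMPA receptor subunit gene Gria1 stood at 2.13 and 111 CPM, and Gria2 at 29.6 and 487 CPM. Gabra2, a subunit of the GABA-A receptor, stood at 10.4 and 353 CPM. The sodium channel gene Scn3a was nearly level in CPM at 122 and 124, and Slc12a5, the potassium-chloride cotransporter that later makes GABA inhibitory, was barely detected at either age (4.27 and 2.11 CPM).

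Guidance and adhesion genes gave 18 of 27 higher and 2 lower (median 1.51), or 10 and 2 on the length-centred scale. Plxna2, a semaphorin receptor gene, went from 15.5 to 371 CPM, and Slit3, a ligand of Robo receptors, from 6.67 to 390 CPM. A pair of guidance receptors counted below with the projection neuron genes was also higher. Nrp1, a neuropilin co-receptor gene for semaphorins, stood at 8.01 and 246 CPM, and Unc5d, a netrin receptor gene of upper-layer and multipolar neurons, at 5.34 and 710 CPM (6.81, length-centred 5.53). The 2 lower members of the guidance list were Robo3, a Robo family receptor of commissural axons (37.6 and 5.41 CPM), and Efna5, an ephrin ligand (204 and 78.6 CPM).

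Splicing and chromatin factors of the neuronal state gave 9 of 16 higher and none lower (median 1.12), or 6 and 1 on the length-centred scale. Rbfox1 stood at 51.2 and 1058 CPM (4.34, length-centred 3.06), and Rbfox3, which encodes the NeuN antigen, at 81.4 and 257 CPM (1.65), a difference of 0.37 against genes of like length. The progenitor splicing repressor Ptbp1 was 44.8 and 42.2 CPM, and its neuronal paralogue Ptbp2, at 176 and 240 CPM, stayed short of 2-fold. The nuclear BAF subunit Actl6b, exchanged into the chromatin remodeller when neurons leave the cycle, stood at 13.1 and 47.5 CPM.

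Genes of projection neuron fate were higher in the neuron range, in 14 of 27 with 2 lower (median 1.06), and 11 and 5 after centring by length. Neurod6 went from 40.8 CPM (34.6 to 47.8) to 469 CPM (462 to 477), a difference of 3.49 that was 3.75 against genes of like length. Bhlhe22, a factor of postmitotic cortical neurons, stood at 28.8 and 361 CPM, and Neurod2, a relative of Neurod6, at 97.1 and 278 CPM. Layer factors differed less. Bcl11b, the deep-layer factor CTIP2, stood at 149 and 285 CPM (0.93), and 0.03 against genes of like length. Tbr1, a factor of early-born neurons including Cajal-Retzius and preplate cells, was 243 and 144 CPM (-0.75). The pallial and hippocampal list was split in this range, with 6 of 21 higher and 6 lower (median -0.35), or 4 and 8 on the length-centred scale. Its members Zbtb20 (122 and 1340 CPM) and Nfix (41.1 and 1312 CPM) were higher, as in progenitors.

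In the neuron range, most Cajal-Retzius genes parted from reelin. Of 15 measured members 2 were at least 2-fold higher and 8 lower in the neuron range (median -1.45), or 2 and 11 on the length-centred scale. Over all kept cells 6 of 15 were higher and 3 lower (median 0.36), or 3 and 5 on the length-centred scale. The list sum over all kept cells was 660 CPM at E11.5 and 861 CPM at E14.5, of which Reln made up 21.7 and 299 CPM. In the progenitor range the sum was 486 and 273 CPM, with 3 of 9 measured members higher and 3 lower. In the neuron range it was 2860 and 1879 CPM. Trp73, the p73 gene that marks hem-derived Cajal-Retzius cells, stood at 147 CPM (135 to 160) at E11.5 and 49 CPM (46.7 to 51.4) at E14.5 (-1.57). Over all kept cells Trp73 read 16.1 and 25.5 CPM (0.63). Lhx1, a LIM homeobox gene of these cells, went from 213 to 53.4 CPM, and Lhx5, a related factor, from 64.6 to 21.9 CPM. Ebf2, an early B-cell factor gene of Cajal-Retzius cells, went from 309 CPM (292 to 328) to 32.4 CPM (30.5 to 34.4), a difference of -3.21. Reln, which encodes reelin, was instead higher, at 164 and 810 CPM (2.30, length-centred 1.02). Car10, also of this list, was higher too, at 1.6 and 17.3 CPM. Over all kept thinned cells Trp73 was detected in 4.49% and 5.54%, with 1.63% and 5.43% in collagen-positive cells, so no difference in its share of cells is read. Those E14.5 collagen-positive cells number 92, and their share has an interval of 1.79% to 12.2%. Within the E14.5 library the Trp73 level was 49 CPM in the neuron range and 7.35 CPM in the progenitor range. Reln was detected in 5.91% and 20.9%, against 3.13% and 5.43%.

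The neuron range of E11.5 also held factors of other regions and of cycling cells that were scarcer in that range at E14.5. Uncx, a homeobox gene of the diencephalon and midbrain, stood at 72.6 CPM (64.2 to 81.7) and 2.94 CPM (2.39 to 3.58). Etv1, an ETS factor gene, stood at 86.5 and 3.57 CPM. All 5 measured diencephalic and other regional genes were lower (median -2.97) on both scales, Tcf7l2 of the thalamus and habenula at 115 and 13.8 CPM. Motile cilia genes were lower in 12 of 15 and higher in 1 (median -1.45), or 14 and 0 on the length-centred scale. Their regulators Mcidas (71.5 and 6.15 CPM) and Ccno (68.3 and 5.62 CPM), which drive multiciliation, led that list. Over all kept cells both were nearly level, Mcidas at 9.61 and 9.36 CPM and Ccno at 8.6 and 7.6 CPM. There 3 of 11 measured motile cilia genes were higher and none lower (median 0.53), or 0 and 2 on the length-centred scale. Foxj1, the master factor of motile cilia, was 55 and 8.65 CPM in the neuron range but 10.9 and 24 CPM in the progenitor range.

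Cell cycle transcripts were lower in the neuron range, in 15 of 28 S phase genes (median -1.14) and 19 of 27 mitotic genes (median -1.17) with none higher, or 21 and 23 on the length-centred scale. Pclaf, a replication clamp factor outside these lists, stood at 189 and 19.2 CPM. The cells of this range had a median of 3 progenitor panel UMIs per 3000 at E11.5 and 2 at E14.5, and whether that difference in residual progenitor RNA bears on these counts was not tested. Hmga2 stood at 61.1 and 1.31 CPM and Lin28b at 57.4 and 14 CPM in neurons, the same direction as in progenitors. GABAergic genes split, with 3 of 10 higher and 5 lower (median -0.98), or 3 and 6 on the length-centred scale. Npy, a neuropeptide gene counted in that list, had no UMI at E11.5 (upper limit 0.984 CPM) and 43.4 CPM at E14.5, against 0.488 and 1.16 CPM in the gof pair. The GABAergic marker Gad2 was lower in the same control range, at 12.8 and 3.42 CPM, so Npy is not read here as a sign of interneurons.

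**Figure D4:**
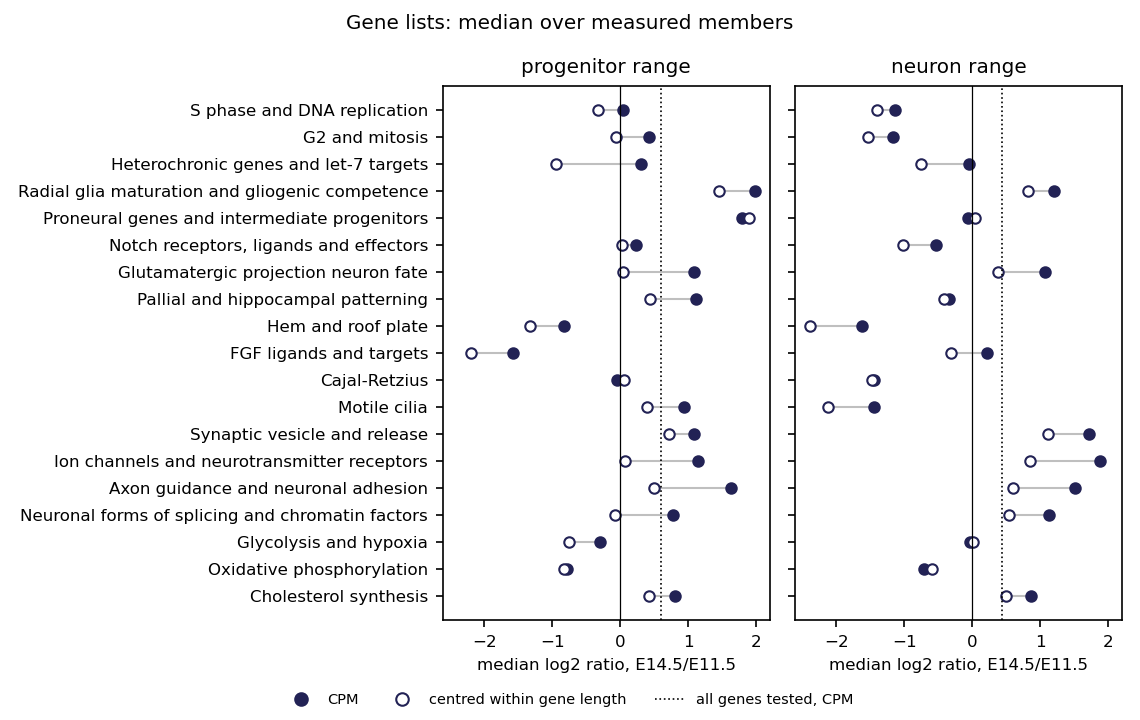
Median log2 ratio of E14.5 to E11.5 over the measured members of 19 gene lists, in the progenitor range (left) and the neuron range (right); filled points are CPM, open points the same after centring within gene length, and the dotted line is the median of all genes tested in CPM. Radial glia maturation (1.98 in CPM) and proneural genes (1.79) lie to the right of the dotted line among progenitors and FGF genes (-1.57) to the left of 0; among neurons synaptic (1.72) and channel genes (1.88) lie to the right of the line and hem genes (-1.62) to the left of 0.

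Metabolic gene groups differed from each other. Over all kept cells none of 25 oxidative phosphorylation genes was higher and 3 were lower (29.9% and 3.13% of all genes), with a median of -0.83, and 4 were lower on the length-centred scale. Cox7c, a small subunit of complex IV, stood at 1896 and 827 CPM, and Atp5b, the catalytic ATP synthase subunit, at 302 and 384 CPM. Of 18 glycolysis and hypoxia genes 1 was higher and 2 lower (median -0.38), or 0 and 5 on the length-centred scale. Gapdh, a glycolytic dehydrogenase, stood at 2671 and 1245 CPM, and Hk2, the hexokinase of growing tissue, at 70.3 and 29.9 CPM. Cholesterol synthesis genes had a median of 0.76 with 4 of 18 higher and none lower, and none passed 2-fold after centring by length. Hmgcs1, the HMG-CoA synthase of that pathway, stood at 159 and 340 CPM.

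Immediate early genes, which tissue dissociation is known to induce, were higher too. Of 11 members of the dissociation and stress list 8 were at least 2-fold higher over all kept cells and none lower (median 1.18), or 6 and none on the length-centred scale. Fos stood at 40.7 and 171 CPM and Jun at 139 and 546 CPM. In the gof pair 1 of 10 measured members was higher and 1 lower (median 0.12), with a log2 difference of 0.15 for Fos and 1.69 for Jun. The part of that response in the other results was not tested.

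Markers of other cells were summed after cells had been removed on collagen and haemoglobin UMIs, and for 5 of 6 lists the sum was higher at E11.5. The erythroid list holds haemoglobin genes, so its sum is partly set by that removal. Summed over each list, endothelial markers read 63.1 CPM at E11.5 and 37.3 at E14.5, mural markers 31.9 and 23.7, microglial markers 57.6 and 53.3, mesenchymal markers 49.2 and 50.5, surface ectoderm markers 42.9 and 11.6, and erythroid markers 315 and 41.3 CPM. Pf4, a platelet and macrophage chemokine, was the clearest lower gene of that kind, at 77.6 and 6.41 CPM. Of the mural sum, 27.1 and 17.4 CPM were Notch3, which is also in the Notch list. Cells with 3 or more endothelial, mural or microglial UMIs made up 6.18% of the progenitor range at E11.5 and 12.1% at E14.5. These UMIs were counted before thinning, at median depths of 8887 and 13748, so the shares are not at equal depth. Notch3 counts towards the limit, so such cells may include neural progenitors. Their part in the progenitor differences was not tested beyond the settings that leave them out.

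The gof pair, which shares no library with the control pair, covers the same ages in another genotype. Of the 2890 higher control genes 2662 were also tested there, and 1862 (69.9%) were at least 2-fold higher in both, which is 78.2% of the 2381 higher gof genes that were also tested in the control pair, while 1 was at least 2-fold lower. Of 295 lower control genes tested in both, 191 (64.7%) were lower in both, 54.1% of the 353 lower gof genes tested in the control pair, and 1 was higher. For scale, 29.9% of all genes tested in the control pair were higher and 3.13% lower. In the progenitor range the shared shares of the control calls were 63.6% and 67.5%, and in the neuron range 69.6% and 61.9%. Both pairs shifted upwards in CPM (0.55 in the control pair and 0.36 in the gof pair on the log2 scale) and rose with gene length. The overlap was not counted after centring, so the part of that common shift in it was not tested.

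Several named genes had a different age difference in the gof pools. Ccnd1, lower in control progenitors, stood at 117 and 139 CPM in gof progenitors (0.25). Hmga2 was lower in both but kept 59.2 CPM at E14.5 in gof progenitors, from 229 at E11.5. Fgf17 went from 70.3 to 34.9 CPM there, and Zbtb20 from 88.2 to 491 CPM. The radial glia maturation list as a whole recurred in gof progenitors, with 19 of 23 measured members higher and none lower (median 1.75). Its member Tnc stood at 0.345 and 11.2 CPM there, and Aldoc at 2.24 and 192 CPM. Prox1 stood at 6.49 and 28.7 CPM. In neurons Reln stood at 95 and 116 CPM in the gof pair, and Trp73 at 94.2 and 4.24 CPM. Dynlrb2, a dynein light chain gene of cilia, was 1.04 in the control pair and -1.72 in the gof pair over all kept cells. Genotype and pool cannot be told apart, and these differences between pairs were not tested.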

How the data were processed

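Single-cell RNA libraries were made with Chromium 3' v3.1 chemistry from dissociated midline tissue, each loaded with about 14400 cells for a target of 9000. The values are raw UMI counts per gene and barcode as the authors deposited them, from Cell Ranger 7.1.0 on mm10 per the submitters' processing notes; the annotation and the handling of intron reads are not given in the sources used here. No barcode under 500 UMIs is in the deposited counts.

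Cells were filtered as the report states and not corrected for doublets or free RNA in the values reported. Counts were summed over cells and scaled to CPM; genes of at least 10 CPM at either age were compared, and at least 2-fold was called. Intervals are exact Poisson or exact binomial (Clopper-Pearson), and cover counting error only. A floor of 3 counts is 0.0481 CPM at E11.5 and 0.0273 CPM at E14.5 over all kept cells, and 0.801 and 0.0891 CPM in the neuron range. There is 1 library a group, so no test was run. The steps were tested on simulated data.

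The members and gene lists were chosen with earlier results of these data known. Named genes are the 15 highest and lowest over all kept cells and the 10 highest and lowest of each range among genes of at least 50 CPM, without haemoglobin, mitochondrial, ribosomal protein, Y-linked, predicted, Rik and clone-named genes or, in the ranges, panel genes; the 2 highest and lowest of each list; and a preset list. The text names fewer than the rule allows, and other genes were named after their values were seen. Alternatives changed the barcode filters, the cells left out, doublets (Scrublet), scaling (edgeR 4.0.16 TMM, median of ratios), weighting of cells, depth, pseudocount, level filter, fold and range limits. Python 3.11.15, numpy 2.4.6, scipy 1.17.1, pandas 2.3.3, scanpy 1.11.5, matplotlib 3.10.9 and R 4.3.3 were used. Some genes, and an alternative that needs such a gene, are not reported here.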

Additional observations from a re-analysis of the deposited data

How the results depend on the processing

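No paired analysis was possible because each group is 1 library and the labels give no shared replicate. Counts of genes higher and lower at E14.5 are given in the order all kept cells, progenitor range, neuron range. Scaling gave 1174 and 980, 851 and 857, and 1398 and 937 with TMM, 1150 and 1004, 820 and 897, and 1313 and 1006 with median-of-ratios factors, and 866 and 736, 580 and 649, and 941 and 925 when centred within gene length, which was chosen after seeing the data. A filter of 50 CPM gave 1302 and 171, 1159 and 131, and 1037 and 245. A filter of 1 CPM gave 485, 436 and 830 lower genes. A 1.5-fold call gave 4902 and 766, 4784 and 679, and 4039 and 1129, and a 4-fold call 623 and 48, 407 and 48, and 578 and 136. The neuron-range share at E11.5 was 6.26% with the stricter barcode filter and 8.65% with no cells left out, and at E14.5 35.1% without endothelial, mural and microglial cells. It was 12.1% and 37.9% with limits of 0, and 6.5% and 25.7% with limits of 2 and -2.

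These directions turned, counting only tested list medians and gene differences that were at least 2-fold. Smaller differences that changed sign are not all listed. Centring by length took the progenitor-range medians of heterochronic genes and let-7 targets from 0.31 to -0.95. It took those of S phase genes from 0.04 to -0.32, and of G2 and mitosis genes from 0.43 to -0.06. Without Ttr-rich cells the choroid list median was -1.50 (all kept cells) and -1.28 (progenitor range), and Htr2c was -0.41 (all kept cells). In that setting, which removes cells on Ttr itself, Ttr was -0.46 in both sets. Without endothelial, mural and microglial cells the choroid median was -0.33. The mesenchyme median in the progenitor range was -2.39 with no cells left out, -0.03 with limits of 2 and -2, -0.07 with each cell weighted equally (endothelial median 0.02) and -0.67 at 1 CPM (microglial median over all kept cells 0.17). At 50 CPM the FGF median was 0.76 and, in the progenitor range, 0.91. Rfx3 was -0.34 when centred by length. Beyond library scaling and length, the cause was not tested. Of the list medians not counted as turned under these settings, 1403 stayed within 1.5-fold and 109 did not, whether or not their sign changed. Of the named gene differences not counted as turned, 2515 stayed within their counting interval and 1512 did not. Depth limits genes near 1 CPM, most of all in the E11.5 neuron range of 564 cells.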
